A study of Mus musculus with 12 samples.

Results

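The genes described here encode the translation initiation factors of the cytoplasm, the proteins that bring a messenger RNA, the initiator tRNA and the ribosomal subunits together at a start codon. The members were 38 autosomal genes, chosen by symbol, for subunits of these factors and for the proteins that bind and block eIF4E. Of these, 33 had a probe set on the array that carries 1 gene symbol, out of 19935 genes measured in that way. The 5 others, Eif1, Eif2s1, Eif3g, Eif3j1 and Eif4g1, had no probe set of their own in the annotation used and were not analysed here. All 33 lay above the filter on dim genes described below, whether or not they changed.

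Initiation begins when eIF2, carrying GTP, delivers the initiator tRNA to the small ribosomal subunit, where eIF1, eIF3 and eIF5 also bind. eIF2B is the exchange factor that recharges eIF2 with GTP, and it is the point at which stress kinases slow protein synthesis. The eIF4 factors act at the mRNA: eIF4E binds the cap, eIF4G is the scaffold, eIF4A is the helicase that eIF4B and eIF4H assist, and the 4E-binding proteins hold eIF4E inactive until mTOR phosphorylates them. Hematopoietic stem cells (HSCs), from which all blood lineages derive, are known for a low rate of protein synthesis compared with more mature progenitors. These arrays measured mRNA, so the values say nothing of protein amount, phosphorylation or translation itself.

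The cells were HSCs of young adult mice, 2 to 3 months old, collected by flow cytometry, 5000 to 7000 per sort, as cells with CD150, c-kit and Sca-1 and without CD48 and lineage markers. Males given corn oil, males given estradiol (E2), females given corn oil and females given E2 formed 4 groups, each with 3 arrays from 3 mice. Every mouse received 100 µL of corn oil under the skin, and the E2 groups received 2 µg of estradiol in it. The sources used here give neither the duration of treatment nor the strain. Values are linear probe set intensities, and differences are on the scale of log2(intensity + 1). Precision was limited by having 3 arrays per group. The HSC markers Slamf1 (349.9 to 686), Kit (1820 to 2756) and Procr (549.8 to 923) were above the filter. Cd48 (62.8 to 116), the erythroid factor Klf1 and the macrophage receptor Csf1r were below it on average. Above it on average were 1 of 4 erythroid markers with a value, 2 of 5 of monocytes and macrophages and 8 of 10 of granulocytes. So were 1 of 5 B cell markers and 3 of 7 T and NK cell markers. Among them were Tfrc (276 to 467), Lyz2 (1243 to 2149), Cd68 (327 to 605), S100a8 (1561 to 6005), Cd79b, Cd3e and Cd4. The filter stood at an intensity of 182, the median over genes, and left 9967 genes.

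Some arrays and some other cells' markers varied along with the groups. Female E2 replicate 1 lay above the other arrays of its group for 20 of the 33 members, where 42.6% of all tested genes were highest on that array. Female oil replicate 1 did so for 20 members too (36.6% of genes), male E2 replicate 2 for 19 (35.8%) and male oil replicate 3 for 17 (32.7%). The summed intensity of 7 megakaryocyte markers was 3579 to 3981 on the oil arrays and 2147 to 3142 on the E2 arrays, but the list did not move as a whole: of 6 tested in the averaged comparison Pf4, Plek, Gp5 and Itga2b fell, Gp9 rose and Vwf did not pass. That of 7 HSC markers was 8011 to 8958 and 7095 to 8332. These sums did not overlap in males (8867 to 8958 and 7913 to 8332) but did in females. Of the 7 HSC markers, 2 were called lower and 0 higher in the averaged comparison, with 5 below 0 and 2 above. Kit and Procr lay lower under E2 without overlap in both sexes. Male means under oil and E2 were 2723 and 2263 for Kit and 897 and 595 for Procr. Female means were 2497 and 1934 for Kit and 739 and 579 for Procr. The 5 progenitor markers summed to 2546 to 3095 under oil and 2231 to 2512 under E2, but this list also split. Of 4 tested in the averaged comparison Flt3, Cd34 and Satb1 fell and Cebpa rose. Cebpa had male means of 205 under oil and 327 under E2 and female means of 232 and 464. The 7 T and NK cell markers summed to 1245 to 1451 under oil and 933 to 1073 under E2. The last difference lay in Nkg7, with a male mean of 573 under oil and 165 under E2 and female means of 495 and 173, while Cd3e and Cd4, the other two tested, did not pass. The 10 granulocyte markers summed to between 5415 and 21585 with wide overlap. The sums of erythroid, monocyte and macrophage, B cell, and stromal and endothelial markers overlapped between oil and E2 over both sexes. In females alone those of B cells (781 to 824 under oil, 605 to 652 under E2) did not overlap. The same held for monocytes and macrophages (2346 to 2734 and 1953 to 2227). Cd79b, with female means of 559 and 396, was the only B cell marker tested. Of the monocyte and macrophage list Lyz2 fell without overlap in females, with means of 1902 and 1310. On the same list Csf1r, Ccr2 and Cd68 rose in females without overlap. No marker read 0. In bulk samples fewer cells of a type and less RNA per cell cannot be told apart, and the part of these shifts in the results below was not tested.

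The promoters of the 3 members with the smallest p-values in the averaged E2 comparison are shown first, because Eif3b passed the test in it and Eif4e and Eif4a3 came next. Each run is the 250 bases before the start of the gene in RefSeq (GRCm38.p6), 5' to 3' on the gene's strand. Eif3b lies at chr5:140419055-140419304 on the plus strand, Eif4e at chr3:138527018-138527267 on the plus strand, in 1 of its 2 windows, and Eif4a3 at chr11:119300044-119300293 on the minus strand. Capitals mark the E-box CACGTG, which the Myc family of transcription factors binds, and the estrogen response element half-site GGTCA.
Eif3b: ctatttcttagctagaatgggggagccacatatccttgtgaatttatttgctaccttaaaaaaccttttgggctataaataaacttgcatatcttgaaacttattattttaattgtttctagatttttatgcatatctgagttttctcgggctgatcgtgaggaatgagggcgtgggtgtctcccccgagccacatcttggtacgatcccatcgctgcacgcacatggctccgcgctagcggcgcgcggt
Eif4e: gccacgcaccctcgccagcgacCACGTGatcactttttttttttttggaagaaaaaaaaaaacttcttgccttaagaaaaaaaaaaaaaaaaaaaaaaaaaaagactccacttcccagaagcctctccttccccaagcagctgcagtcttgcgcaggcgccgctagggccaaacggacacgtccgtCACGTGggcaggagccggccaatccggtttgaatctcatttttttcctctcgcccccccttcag
Eif4a3: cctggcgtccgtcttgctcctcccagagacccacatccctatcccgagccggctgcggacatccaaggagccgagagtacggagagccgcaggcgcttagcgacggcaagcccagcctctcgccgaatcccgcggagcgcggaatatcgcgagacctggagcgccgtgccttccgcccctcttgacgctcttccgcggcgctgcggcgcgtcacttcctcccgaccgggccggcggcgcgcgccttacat
Eif4e held 2 E-boxes in this window, while its other window, at chr3:138525941-138526190, held a half-site and 0 E-boxes. The windows of Eif3b and Eif4a3 held no capitals.

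Promoter windows were found for 26 of the 33 members, 35 windows in all. The full estrogen response element, GGTCA and TGACC with any 3 bases between them, reads the same on both strands and was in 0 of the 26, in 0 of 8068 tested genes with a window and in 0.0639% of all 32851 windows of that length. The half-site GGTCA, on both strands, was in a window of 7 of the 26 members (26.9%) and of 37.3% of the tested genes, and in 35.2% of all windows. The E-box CACGTG, which reads the same on both strands, was in 7 of the 26 (26.9%), namely Eif1b, Eif3f, Eif3k, Eif4a1, Eif4e, Eif4h and Eif5a, in 9.99% of the tested genes and in 6.02% of all windows. In Eif1b and in 2 of the 6 windows of Eif5a an E-box and a half-site overlap. These 2 windows of Eif5a themselves overlap and hold the same site. A match describes letters and not a bound site.

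The first comparison set E2 against oil, averaged over males and females. Messenger RNAs of the initiation factors shifted little. Eif3b, the scaffold subunit of eIF3, rose by 1.20-fold, and it was the 1 member of 33 that passed. In limma's model 8.90% of all 9967 genes tested were called in this comparison, 3.12% higher and 5.78% lower. Of the members 3.03% were called higher and 0 lower, so their count of higher calls is at the background. At an unadjusted p under 0.05 there were 8 members, 7 of them above 0 and Eif4ebp2 below, and 24.6% of all tested genes, so that count is also at the background. The median log2 difference of the members was 0.07, with 22 above 0 and 11 below, beside a median of -0.01 over all tested genes, 46.7% of which were above 0. Without female E2 replicate 1 the members had a median of 0.036 and 20 were above 0. The fitted 95% intervals of all 33 members lay between -0.35 and 0.42. At this precision a change of 0.5 or more in either direction lay outside the interval of each of them.

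**Figure D1:**
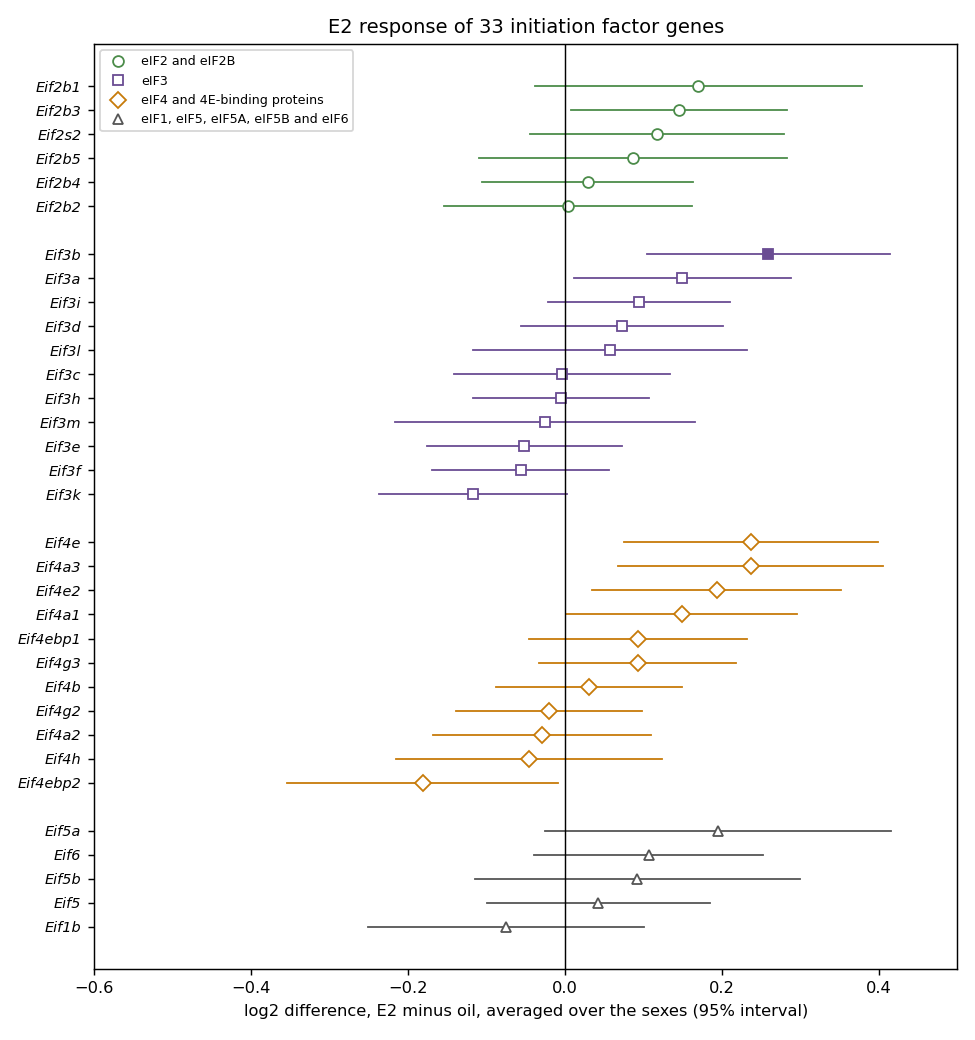
Log2 difference (E2 minus oil, averaged over the sexes; horizontal axis) of each of the 33 genes with its 95% interval, ordered by factor; filled symbols passed limma's test at an adjusted p under 0.05 and open symbols did not. Eif3b, at 0.26, is the filled symbol, and 8 intervals do not include 0.

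Among the subunits of eIF3, the largest initiation factor, Eif3b read 951, 779 and 879 in oil-treated males and 988, 1083 and 1006 in E2-treated males. In females it read 981, 829 and 815 under oil and 1139, 1039 and 996 under E2. The E2 arrays lay above the oil arrays without overlap in both sexes, which held for no other member and for 2.32% of the tested genes (7.19% in either direction, 4.88% below). The averaged log2 difference was 0.26 ± 0.07 (SE; limma adjusted p = 0.0403), with 0.24 ± 0.10 in males (adjusted p = 0.289) and 0.28 ± 0.10 in females (adjusted p = 0.154). The averaged call was narrow. It ended, at adjusted p from 0.0523 to 0.106 and log2 differences from 0.22 to 0.27, when 1 array was left out. Among males these were replicates 2 and 3 of the oil group and each E2 array, and among females replicates 2 and 3 of the oil group and 1 and 2 of the E2 group. It also ended with no filter on dim genes (adjusted p = 0.0994) or a filter at the 25th percentile (adjusted p = 0.0618).

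The other 10 eIF3 subunits measured did not pass. Eif3a, the largest subunit and partner of Eif3b in the core, read 1791, 1688 and 1902 in oil-treated males and 2099, 2243 and 2029 under E2. Its female arrays read 1939.6, 1929 and 1798 under oil and 2189, 1917 and 1798 under E2, and overlapped. The averaged difference of Eif3a was 0.15 ± 0.06 (adjusted p = 0.169). Eif3k, a small peripheral subunit, had the lowest value of the complex at -0.12 ± 0.06 (adjusted p = 0.213), with male means of 3069.6 ± 107 under oil and 2866 ± 157 under E2 (SD, n = 3). Its female means were 3108 ± 98.2 and 2833 ± 145, and the female arrays did not overlap. Eif3i and Eif3g sit with Eif3b in a module of the complex. Of these, Eif3i was at 0.09 ± 0.05 (adjusted p = 0.307), and its male arrays did not overlap. Eif3d, a subunit that can bind caps, was at 0.07 and Eif3l at 0.06. Eif3c, Eif3h, Eif3m, Eif3e and Eif3f lay between -0.06 and -0.00. Eif3c had the highest p of the complex, with a difference of -0.00 ± 0.06 (adjusted p = 0.978). Of the 11 eIF3 genes 5 were above 0 and 6 below, with a median of -0.00.

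The eIF4 genes include those that bind the cap. Eif4e, the cap-binding protein, read 897, 887 and 1087 in oil-treated males and 1127, 1266 and 1039 under E2. In females it read 1149.9, 1085 and 1036 under oil and 1392, 1221 and 1189 under E2, with no overlap there, while the male arrays overlapped. The averaged difference was 0.24 ± 0.08, which did not pass (adjusted p = 0.0679, and 0.0382 to 0.176 over the alternatives). Eif4e2, a related cap-binding protein that represses translation, read 699, 658 and 669 in oil-treated females and 788, 789 and 803 under E2, without overlap. In males its arrays overlapped, and its averaged difference was 0.19 ± 0.07 (adjusted p = 0.121).

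Among the helicases, Eif4a3, which acts in the exon junction complex and not in cap binding, read 963, 933 and 1041 in oil-treated males and 1107, 1169 and 1205 under E2. Its female arrays read 934, 966 and 1115 under oil and 1319, 986 and 1243 under E2, where replicate 2 lay among the oil arrays. The averaged difference of Eif4a3 was 0.24 ± 0.08 (adjusted p = 0.0784, and 0.0170 to 0.172 over the alternatives). Eif4a1, the main helicase of cap-dependent initiation, had 0.15 ± 0.07 (adjusted p = 0.201), and its close relative Eif4a2 had -0.03 ± 0.06 (adjusted p = 0.828). The helper genes Eif4b and Eif4h were at 0.03 and -0.05. Of the scaffolds, Eif4g3 was at 0.09 and Eif4g2, which lacks the part that binds eIF4E, at -0.02 ± 0.05 (adjusted p = 0.869), the highest p of the eIF4 genes.

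The 4E-binding proteins lay on opposite sides of 0, a contrast between them that was not tested. Eif4ebp2 read 2579, 2659 and 2424 in oil-treated males and 2375, 2299.8 and 2474 under E2. In females it read 2753, 2586 and 2553 under oil and 2658, 1830.1 and 2161 under E2, so that replicates 2 and 3 lay below every oil array and replicate 1 lay among them. The averaged difference was -0.18 ± 0.08 (adjusted p = 0.18), the lowest of all 33 members. It was -0.12 without female E2 replicate 2. Without female E2 replicate 1 it was -0.25 and passed (adjusted p = 0.0234), as did the difference in females alone at -0.40 (adjusted p = 0.0263). In females with all arrays it was -0.26 ± 0.11 (adjusted p = 0.231). Eif4ebp1 was at 0.09 ± 0.06 (adjusted p = 0.411), with male arrays of 661 to 677 under oil and 709.5 to 763 under E2. Of the 11 eIF4 genes and 4E-binding proteins, 7 were above 0 and 4 below, with a median of 0.09, and none passed. Without female E2 replicate 1 the median was 0.047.

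**Figure D2:**
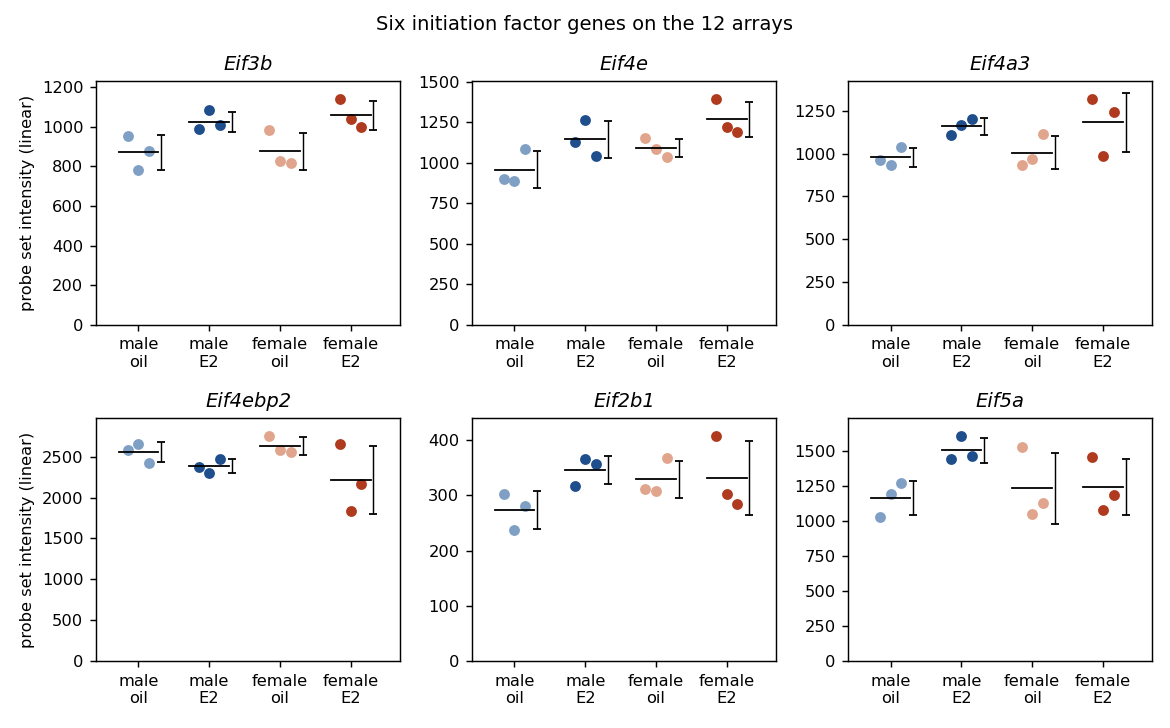
Linear probe set intensity (vertical axis, from 0) of Eif3b, Eif4e, Eif4a3, Eif4ebp2, Eif2b1 and Eif5a on each array, by group; points are arrays, horizontal bars are means and error bars are 1 SD (n = 3). Eif3b on the E2 arrays (988 to 1139) lies above the oil arrays (779 to 981), Eif2b1 and Eif5a do not overlap between the male groups and do between the female groups, and female E2 replicate 1, the leftmost point of its group, is the highest of its group in all these panels.

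Of eIF2 and its exchange factor eIF2B, 6 genes were measured, and none passed. In the probe sets used, all 6 averaged differences were above 0, from 0.00 to 0.17, with a median of 0.10. Without female E2 replicate 1 it was 5 of 6 with a median of 0.057, Eif2b1 at 0.091 and Eif2s2 at 0.061. The sign of Eif2s2 rested on the probe set, as a second one, with a mean intensity of 1127 against 1185, gave -0.01. Eif2b2 changed sign in 7 of 22 alternatives. Eif2b3, in the catalytic part of eIF2B, read 379, 374 and 427 in oil-treated females and 434, 469 and 467 under E2, and its averaged difference was 0.15 ± 0.06 (adjusted p = 0.178). Eif2b1, a regulatory subunit that senses phosphorylated eIF2, read 302, 237 and 281 in oil-treated males and 316, 365 and 356 under E2. In females it read 311, 309 and 367, then 407, 303 and 284, and the groups overlapped. Its averaged difference was 0.17 ± 0.10 (adjusted p = 0.304). Eif2s2, the beta subunit of eIF2, read 946, 1078 and 1097 in oil-treated males and 1255, 1317 and 1204 under E2, and the averaged difference was 0.12 ± 0.08 (adjusted p = 0.371). Eif2b5, the catalytic subunit, was at 0.09 and Eif2b4 at 0.03. Eif2b2 was at 0.00 ± 0.07 (adjusted p = 0.984).

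Of the remaining factors 5 were measured, and none passed. Eif5a, the hypusine-bearing factor that helps ribosomes through difficult peptide bonds, read 1031, 1195 and 1269.6 in oil-treated males and 1439, 1608 and 1463 under E2. In females it read 1524, 1047 and 1125 under oil and 1459.7, 1077 and 1189 under E2, which overlap throughout. The averaged difference was 0.20 ± 0.10 (adjusted p = 0.26). Eif6, which keeps the large ribosomal subunit from joining too early, was at 0.11 ± 0.07 (adjusted p = 0.366). Eif5b, the GTPase of subunit joining, was at 0.09 ± 0.10 (adjusted p = 0.61), and without female E2 replicate 1, which read 1037 against 669 and 734 on the other arrays of its group, at -0.0023. Eif5, which triggers GTP hydrolysis by eIF2, was at 0.04 ± 0.07 (adjusted p = 0.749). Eif1b, a paralog of the start codon factor Eif1, was the only one of the 5 below 0, at -0.08.

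In males alone, more members leaned upward, and none passed. Of 33, 27 were above 0 with a median of 0.09, beside 49.985% of all tested genes above 0 and a median of -0.00. The largest values were those of Eif5a at 0.37 ± 0.14 (adjusted p = 0.248), Eif2b1 at 0.34 ± 0.14 (adjusted p = 0.261) and Eif2s2 at 0.28 ± 0.11 (adjusted p = 0.241). A second probe set of Eif2s2, with a mean intensity of 1127 against 1185, gave 0.10 in males. In limma's test 0 members were called at an adjusted p under 0.05 and 7 had an unadjusted p under 0.05. Of all genes 1.43% were called, 0.572% higher and 0.863% lower, and 14.7% had an unadjusted p under 0.05. The E2 arrays lay above the oil arrays without overlap for 13 members and below them for 0. Of the tested genes 26.5% did not overlap, 13.6% lying above in this way. The 13 were Eif2s2, Eif2b1, Eif3a, Eif3b, Eif3c, Eif3i, Eif3l, Eif4a1, Eif4a3, Eif4b, Eif4g2, Eif4ebp1 and Eif5a.

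In females alone the directions were mixed. Of 33 members 18 were above 0 and 15 below, where 44.2% of all genes were above 0. The median was 0.02 beside -0.02 over all genes. In limma's test 0 members passed, while 4 had an unadjusted p under 0.05. Of all genes 3.56% were called in this comparison, 0.813% higher and 2.75% lower, and 18.6% had an unadjusted p under 0.05. The E2 arrays lay above without overlap for 6 members, Eif2b2, Eif2b3, Eif2b4, Eif3b, Eif4e and Eif4e2, and below for 4, Eif1b, Eif3e, Eif3f and Eif3k, where 20.1% of the tested genes did not overlap and 6.95% lay above. Without female E2 replicate 1 the numbers turned to 12 of 33 above 0 and a median of -0.03, beside -0.04 over all genes. The eIF3 genes then had 2 of 11 above 0 and a median of -0.06.

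**Figure D3:**
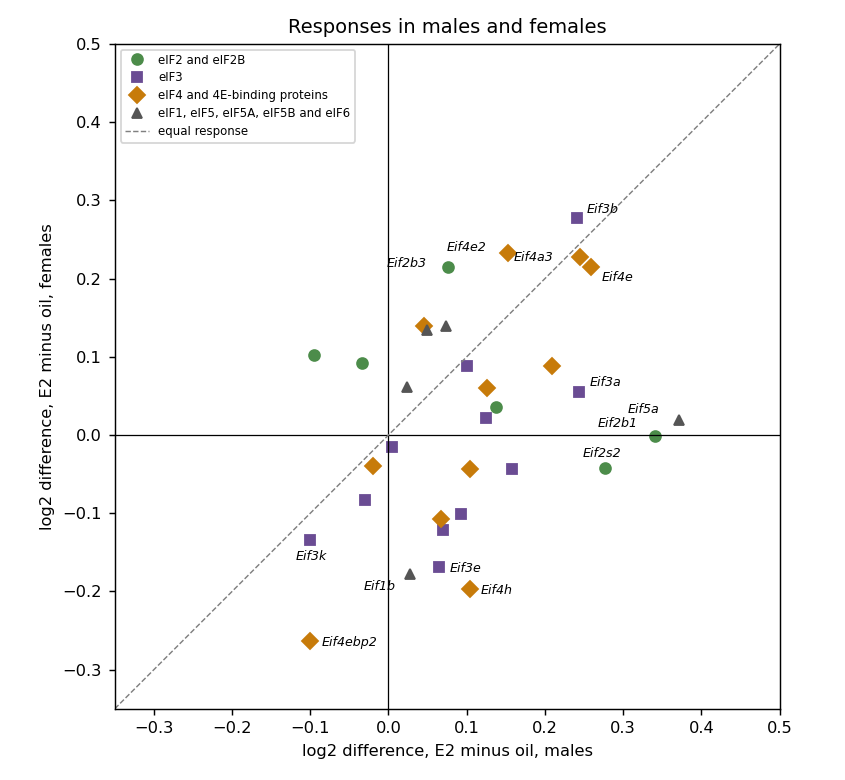
Log2 difference (E2 minus oil) in males (horizontal axis) and females (vertical axis) for the 33 genes, 1 symbol per gene, shaped by factor; the dashed line marks equal responses. Of the 33, 16 lie above 0 in both sexes, 4 below 0 in both, and 11 above 0 in males and below in females.

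The male and female responses share no arrays and were compared by the difference of the differences. No member passed in limma's test, with the lowest adjusted p at 0.932 for Eif2s2 and 0 members at an unadjusted p under 0.05, where 1 gene of 9967 (0.0100%) was called and 5.37% had an unadjusted p under 0.05. The median was -0.07, beside -0.04 over all tested genes. Of 33 members 24 were lower in the female response and 9 higher, where 40.5% of all tested genes were higher. Eif2s2 had a difference of -0.32 ± 0.15, or -0.22 with its second probe set, and Eif5a one of -0.35 ± 0.20. The intervals of these differences reached from -0.79 to 0.51 over the members, and all 33 included 0. Of the 11 eIF3 genes 10 lay below 0 here, and all 11 did without female E2 replicate 1.

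The sexes were also compared directly. Under oil, 25 of 33 members read higher in females, where 49.2% of all genes did. The median log2 difference (female minus male) was 0.05 beside -0.00 over all genes. Here 0 members were called, where 0.0401% of genes were called and 4.99% had an unadjusted p under 0.05. The 1 member with an unadjusted p under 0.05 was Eif2s2, at 0.26 ± 0.11 (limma adjusted p = 0.919). Its second probe set gave 0.11 here. Under E2, 10 of 33 read higher in females, where 38.7% of all genes did, with a median of -0.04 beside -0.04 over all genes. Again 0 were called, where 0.0100% of genes were called and 9.04% had an unadjusted p under 0.05. The 1 member with such a p was Eif2b2, at 0.24 ± 0.10 (adjusted p = 0.514).

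Across arrays the members moved as a group by small amounts. Taken as the mean log2 level of all 33 relative to the mean of the male oil arrays, the oil arrays of males lay at -0.02, -0.03 and 0.05 and the E2 arrays at 0.09, 0.14 and 0.08. The female oil arrays lay at 0.10, 0.02 and 0.03 and the E2 arrays at 0.16, 0.01 and 0.04. The male groups therefore did not overlap, and the female groups did, with replicate 1 the highest of each female group. The mean of the oil-treated females, 0.05 ± 0.04 (SD, n = 3), differed from that of the E2-treated females, 0.07 ± 0.08, by less than the spread between arrays.

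**Figure D4:**
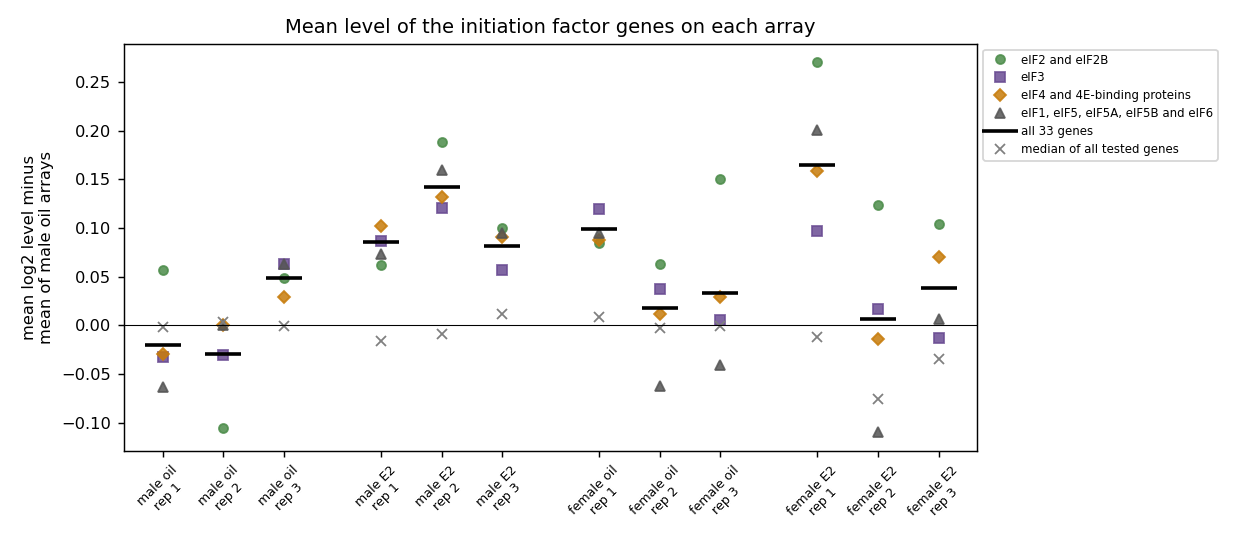
Mean log2 level of the genes of each factor, and of all 33 (bars), on each of the 12 arrays relative to the mean of the male oil arrays (vertical axis); crosses show the median of all tested genes. The 3 male E2 arrays lie between 0.08 and 0.14 for all 33 genes, and female E2 replicate 1 at 0.16 is the highest array.

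The spread between replicates was also compared. The SD within groups, pooled over the 4 groups, had a median of 0.11 over the 33 members on the log2 scale and 0.14 over all tested genes, and 23 of 33 members were below the latter. The lowest spread was in Eif3h and Eif3f at 0.05 each, and the highest in Eif5a at 0.20, Eif2b1 and Eif5b at 0.19. Of the members 5 had several probe sets. In the averaged E2 comparison the 3 probe sets of Eif4a1 gave 0.14 to 0.15 and the pair for Eif5a 0.19 and 0.20. The second probe set of Eif2s2 gave -0.01 against 0.12, and a probe set of Eif4e gave 0.14 against 0.24. For Eif3m they gave -0.03 and -0.08. The sources used here do not say whether a probe set reads the named gene or a near-identical copy.

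Other genes of initiation were taken from lists by function. Of 15 further initiation factors tested, 0 rose and 1 fell in the averaged comparison. This was Eif2a, which encodes an alternative carrier of initiator tRNA and is not a subunit of eIF2. It read 1523, 1835 and 1629.8 in oil-treated males and 1497, 1463 and 1532 under E2, then 1683, 1789 and 1863 in oil-treated females and 1305, 1309 and 1457 under E2. The female groups did not overlap and the male groups did. Eif2a fell by 0.27 on the log2 scale on average (SE 0.06; limma adjusted p = 0.0183) and by 0.39 in females (SE 0.09; adjusted p = 0.0302). The averaged call ended without any 1 of male E2 replicate 2 or female oil replicates 2 and 3, at adjusted p from 0.0502 to 0.0514, and with no filter (adjusted p = 0.0531). In females the call ended when any oil array or E2 replicate 2 was left out, at adjusted p from 0.0554 to 0.120, and with no filter (0.0849), a filter at the 25th percentile (0.0516) or array weights (0.0630). Fitted on the female groups alone, it had an adjusted p of 0.132. Of 24 regulators of initiation tested, among them the eIF2 kinases, Atf4, mTOR complex genes and the poly(A)-binding protein Pabpc1, 0 were called, and 2 had an unadjusted p under 0.05, beside 24.6% of all tested genes. Their median was -0.03.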

How the data were processed

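Hematopoietic stem cells were profiled on 12 Affymetrix arrays, 3 in each of 4 groups taken from the sample titles. The authors deposited 1 linear intensity per array for each of 35474 probe sets. Per the labels, cDNA was amplified with NuGEN Ovation Pico WTA V2 and labelled with biotin. The sources used here do not give summarisation, background correction, normalization or software. The medians of the arrays lay between 143 and 159, and no background level is given.

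Of the probe sets, 21780 had 1 gene symbol in the platform annotation, 1605 several and 12089 none. The highest-mean probe set stood for each of 19935 genes. Values were taken as log2(intensity + 1), and genes with a mean above the median were kept. limma 3.58.1 in R 4.3.3 fitted 1 mean per group to all 12 arrays (8 residual and 5.38 prior degrees of freedom), with Benjamini-Hochberg adjustment over 9967 genes and a threshold of 0.05. The fit was also run on simulated data as a check of the code. That check required recovery only of differences far larger than any seen in the members. The p-values set a difference against the spread between arrays within groups, pooled over the 4 groups and drawn toward that of all tested genes. The groups differed in spread: the members' median SD was 0.12 in E2-treated females and 0.06 in oil-treated females. Promoters are RefSeq sequences; 26 of 33 members matched by symbol.

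Members and lists were chosen with earlier results of these data known. Members were named where called in any comparison, where arrays did not overlap in both sexes, or with the 3 smallest and the largest p of their factor; other members, Eif4ebp2 among them, were named with their values known. Alternatives concerned normalization, offset, filter, probe sets, model, weights, samples and threshold. Called genes of the other initiation, regulator, elongation and mitochondrial lists were named, and markers of cell types were summed per array.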

Additional observations from a re-analysis of the deposited data

How the results depend on the processing

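The count of members called in the averaged E2 comparison, 1, was 0 with no filter and with a filter at the 25th percentile, 2 (Eif3b and Eif4e) under eBayes with trend and robust estimation, and 3 at an adjusted p under 0.1 (with Eif4a3). It was 0 to 1 when each array was left out in turn, and the 1 was not always Eif3b. Without female E2 replicate 1 it was Eif4ebp2. Over all 22 alternatives Eif4e passed in 3 and Eif4a3 in 2, with lowest limma adjusted p of 0.0382 and 0.0170. In females the count was also 0 to 1, where Eif4ebp2 passed without female E2 replicate 1. With each array left out, the median difference of the members ran from 0.036 to 0.086 in the averaged comparison, from -0.031 to 0.081 in females and from -0.14 to -0.038 for the female minus the male response. Values near 0 changed sign. Eif3c was 0.0018 with each array centred on its median, and with an array left out Eif3c ran from -0.052 to 0.021, Eif2b2 from -0.024 to 0.056 and Eif5b from -0.0023 to 0.16. In males, for the difference in response and between the sexes, the members called numbered 0 in every alternative run. The count over all genes in the averaged comparison, 887, was 568 with no filter, 1459 at an adjusted p under 0.1 and as low as 476 without female oil replicate 2. In females, 355 became 183 with no filter, 226 with array weights, 67 with the compared groups alone and 657 at an adjusted p under 0.1; in males, 143 became 80, 409, 390 and 264. The replicate number did not pair the arrays (18 correlations from -0.26 to 0.20, with the best match on the same number in 4 of 18 comparisons). With the replicate block the averaged count was 1 and the median 0.07, and 736 genes were called. Fitting every probe set as its own row was added after seeing the data. All 33 members lay above the filter, which is not a background level, so signal over background was not tested.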

Other observations

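Factors that act after initiation were compared in the same way, E2 against oil averaged over the sexes. Of 13 elongation and termination factors tested, 0 passed in limma's test, 7 were above 0 and 6 below, with a median log2 difference of 0.03, and 6 had an unadjusted p under 0.05, beside 24.6% of all tested genes. Eef2k, the kinase that blocks elongation factor eEF2, had the lowest value at -0.30 ± 0.09 (SE; limma adjusted p = 0.0649), with male means of 748 ± 69.2 under oil and 624 ± 57.8 under E2 (SD, n = 3) and female means of 709.8 ± 23.4 and 572 ± 118. Eef2 itself lay lower under E2 without overlap in both sexes, as did 4.88% of all tested genes. Its male means were 4554 under oil and 4404 under E2, and its female means 4725 and 4190. The release factor genes Gspt1 and Etf1 were at 0.24 and 0.26 (limma adjusted p = 0.0945 and 0.139). The ribosome rescue factor Pelo was at 0.28 (limma adjusted p = 0.111).

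All 6 genes of mitochondrial initiation and elongation tested were above 0, from 0.07 to 0.28, and 0 passed. Tufm, the mitochondrial elongation factor that delivers tRNAs, was at 0.28 ± 0.08 (adjusted p = 0.0555). Its male means were 401 ± 65.0 under oil and 513 ± 16.7 under E2, and its female means 470.4 ± 12.7 and 541 ± 74.4.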
